A study of Mus musculus with 16 samples.

Results

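The genes described here are 9 markers of homeostatic microglia, P2ry12, P2ry13, Gpr34, Cx3cr1, Csf1r, Tmem119, Siglech, Fcrls and Sall1. They were taken from the table of raw counts by gene name, and all 9 were found among its 49315 genes. Each of the 9 passed the filter on low counts, which left 17469 genes to be tested. Hippocampal RNA of 16 mice was sequenced, 4 animals to a group, and the groups were wild type on a standard diet, Kcna1 knockout on a standard diet, wild type on a ketogenic diet and Kcna1 knockout on a ketogenic diet. Mice without Kcna1, the gene of a subunit of axonal voltage-gated potassium channels, have spontaneous seizures, and a ketogenic diet supplies mostly fat with little carbohydrate. Strain, age, sex, the length of the diet, the way the knockout was made and any pooling of tissue are not given in the sources used here. Libraries are named below by the animal tag of their column.

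Microglia are the resident macrophages of the brain parenchyma. In the undisturbed brain they carry a characteristic set of surface receptors with which they sense nucleotides, lipids, chemokines and growth factors from neighbouring cells, and transforming growth factor beta signalling helps to keep this set expressed. When microglia become reactive after injury or in neurodegeneration, genes of this homeostatic set are commonly turned down while lysosomal, complement and phagocytic genes are turned up. Of the markers here, P2ry12, P2ry13, Gpr34, Cx3cr1 and Csf1r encode cell surface receptors, Tmem119, Siglech and Fcrls encode other membrane proteins, and Sall1 encodes a zinc finger transcription factor.

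Library totals ranged from 13440230 to 22309504 counts, and the 9 genes together held 2626 to 7598 counts in a library, the smallest single value being 80 counts for Siglech. Kcna1, which checks the genotype labels, lay between 107 and 130 CPM (counts scaled to the normalised library size) in the 8 wild type libraries and between 43.4 and 47.2 CPM in 7 of the 8 knockout libraries. The library labelled knockout KC888LL, on the standard diet, stood apart at 82.0 CPM, and it is kept under its label below. The Y-linked gene Ddx3y was expressed in KC872RL and KC873RR of the knockout on the standard diet, in KC890RL of the wild type on that diet and in KC846L of the wild type on the ketogenic diet, at 56.5 to 65.1 CPM, and was at most 1.63 CPM in the other 12, which include all 4 knockout libraries on the ketogenic diet. Xist, a transcript of female cells, was at 4.43 to 41.1 CPM in the 4 libraries with Ddx3y and at 729.6 to 844 CPM in the other 12. By these genes the 4 are male and the other 12 female, which the labels do not state. KC872RL and KC873RR were thus the only male libraries among the 8 knockouts, and sex was unequal between the diets in the knockout. Within the knockout, sex cannot be told apart from other features of KC872RL and KC873RR. Nothing in the labels says whether animals of a group came from separate litters, so p-values measure the spread between these 16 libraries.

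The 9 genes were higher in KC872RL and KC873RR than in any other library of the study, and the 4 knockout libraries on the ketogenic diet had the lowest sums. Summed over the 9 genes, CPM was 382 in KC872RL and 366 in KC873RR, against 201 in KC893RL and 206 in KC888LL, the other knockout libraries on the standard diet. The wild type libraries lay between 202 and 225 CPM on the standard diet and between 200 and 221 CPM on the ketogenic diet, and the knockout libraries on the ketogenic diet between 178 and 196 CPM. The knockout on the standard diet was therefore made up of a pair of libraries with high values and a pair within the range of the wild type. KC872RL and KC873RR were the 2 highest of the 16 libraries for 9 of 9 genes. In RNA from whole tissue, more microglia and more of these transcripts per cell cannot be told apart.

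**Figure D1:**
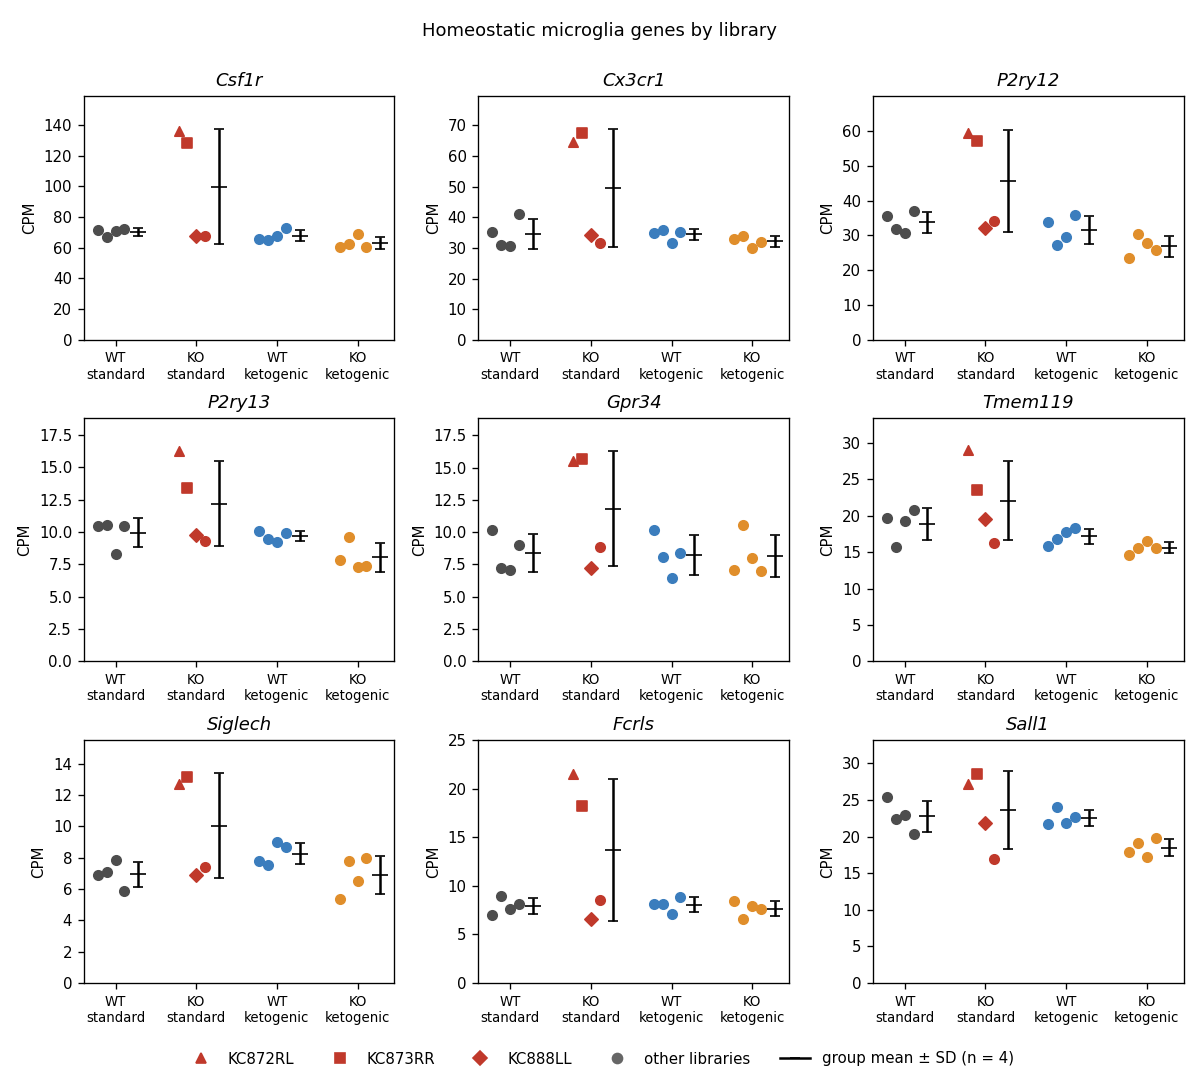
CPM of each of the 9 homeostatic microglia genes in the 16 libraries, by group (4 libraries each); points are libraries, and the bar beside them is the group mean ± SD. The triangle (KC872RL) and the square (KC873RR) are above the other 14 libraries in 9 of 9 panels, as a ratio by the least in Sall1 and by the most in Fcrls.

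Among the nucleotide and lipid receptors, P2ry12, which encodes the ADP receptor that steers microglial processes towards damage, measured 35.7, 31.9, 30.7 and 37.0 CPM in the wild type on the standard diet. In the knockout on that diet P2ry12 measured 59.5 in KC872RL, 57.3 in KC873RR, 32.1 in KC888LL and 34.1 CPM in KC893RL. On the ketogenic diet it measured 33.9, 27.1, 29.6 and 35.8 CPM in the wild type and 23.5, 30.4, 27.7 and 25.8 CPM in the knockout. The knockout on the ketogenic diet held the lowest P2ry12 value of the study, and its 4 libraries lay below all 4 knockout libraries on the standard diet. P2ry13, which encodes a related ADP receptor and lies beside P2ry12, measured 10.5, 10.6, 8.28 and 10.5 CPM in the wild type on the standard diet. It measured 16.2 in KC872RL, 13.4 in KC873RR, 9.79 in KC888LL and 9.32 CPM in KC893RL. Under the ketogenic diet P2ry13 lay between 9.25 and 10.1 CPM in the wild type and between 7.29 and 9.65 CPM in the knockout, so that the groups on this diet overlapped. Gpr34, which encodes a receptor for lysophosphatidylserine, measured 15.5 and 15.7 CPM in KC872RL and KC873RR. In the other 14 libraries Gpr34 ranged from 6.42 to 10.5 CPM, with no order by genotype or diet.

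Cx3cr1, which encodes the receptor for the neuronal chemokine fractalkine, measured 35.1, 31.1, 30.5 and 41.1 CPM in the wild type on the standard diet. In the knockout on that diet Cx3cr1 measured 64.5 in KC872RL, 67.6 in KC873RR, 34.2 in KC888LL and 31.5 CPM in KC893RL. Under the ketogenic diet Cx3cr1 lay between 31.6 and 35.7 CPM in the wild type and between 29.8 and 34.0 CPM in the knockout. The second pair of knockout libraries on the standard diet thus fell inside the wild type range, and the genotypes overlapped on both diets. Csf1r, which encodes the growth factor receptor on which microglial survival depends, measured 71.7, 66.8, 71.2 and 72.3 CPM in the wild type on the standard diet and 65.3 to 73.1 CPM in that on the ketogenic diet. Csf1r measured 136 in KC872RL, 128 in KC873RR, 67.6 in KC888LL and 68.0 CPM in KC893RL. The knockout on the ketogenic diet, at 60.4 to 69.1 CPM of Csf1r, overlapped both wild type groups.

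Among the other membrane proteins, Fcrls, which encodes an Fc receptor-like protein found in mouse microglia, showed the widest relative gap between libraries. Fcrls measured 7.04, 8.95, 7.58 and 8.10 CPM in the wild type on the standard diet, and 21.5 in KC872RL, 18.2 in KC873RR, 6.60 in KC888LL and 8.50 CPM in KC893RL. On the ketogenic diet it lay between 7.07 and 8.88 CPM in the wild type and between 6.58 and 8.50 CPM in the knockout, near the remaining libraries of the standard diet. Siglech, which encodes a sialic acid-binding lectin, measured 12.7 and 13.2 CPM in KC872RL and KC873RR, against 5.35 to 9.02 CPM in the other 14 libraries. Tmem119, which encodes a transmembrane protein widely used to tell microglia from other macrophages, measured 29.0 and 23.5 CPM in these libraries. In the other 14 libraries Tmem119 ranged from 14.7 to 20.7 CPM, and KC873RR was thus separated from the next library by a small step.

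Sall1, which encodes a transcription factor that maintains microglial identity, departed from the rest of the set. Sall1 measured 25.4, 22.4, 23.0 and 20.3 CPM in the wild type on the standard diet, and 27.2 in KC872RL, 28.6 in KC873RR, 21.8 in KC888LL and 16.9 CPM in KC893RL. The knockout on the standard diet held both the highest and the lowest Sall1 value of the study. Under the ketogenic diet Sall1 lay between 21.7 and 24.0 CPM in the wild type and between 17.2 and 19.9 CPM in the knockout, and these groups did not overlap.

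Relative to the mean of the wild type on the standard diet, the 9 genes had a median of 1.84-fold in KC872RL and 1.82-fold in KC873RR. Sall1 had the smallest ratio in KC872RL, 1.19-fold, and Tmem119 the smallest in KC873RR, 1.25-fold, while Sall1 was at 1.26-fold there. Fcrls had the largest ratio in both, 2.72-fold and 2.30-fold. Between these ends, P2ry12 stood at 1.76-fold and 1.69-fold, Csf1r at 1.93-fold and 1.82-fold, and Cx3cr1 at 1.87-fold and 1.96-fold. The order of the genes was therefore similar but not identical in these libraries, with P2ry13 and Tmem119 nearer to the wild type in KC873RR (1.35-fold and 1.25-fold) than in KC872RL (1.63-fold and 1.54-fold). The same median was 0.959-fold in KC888LL and 0.965-fold in KC893RL.

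The markers differed in abundance. Per kilobase of exonic length, which allows levels of different genes to be set side by side, P2ry12 was at 13.6 ± 3.95 and Csf1r at 13.05 ± 3.90 CPM per kilobase (SD, n = 16 libraries). These 2 genes were not separated, since P2ry12 exceeded Csf1r in 9 of 16 libraries. Cx3cr1 followed at 8.35 ± 2.54 and Tmem119 at 7.96 ± 1.58 CPM per kilobase, again with the first above the second in 9 of 16 libraries. Gpr34, Sall1, Fcrls and P2ry13 lay between 3.94 and 4.38 CPM per kilobase and exchanged places from library to library. Siglech was lowest, at 2.38 ± 0.63 CPM per kilobase, below P2ry13 in 16 of 16 libraries. The steps from Csf1r to Cx3cr1 and from Tmem119 to Gpr34 also held in 16 of 16 libraries.

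Positions of the genes are from GENCODE M21 on GRCm38. P2ry12 (ENSMUSG00000036353, chromosome 3, 59216272 to 59262871, minus strand) and P2ry13 (ENSMUSG00000036362, chromosome 3, 59207892 to 59210882, minus strand) lie inside Med12l, a gene on the opposite strand, and P2ry12 shares 9 exonic bases with it. Fcrls (ENSMUSG00000015852) is on chromosome 3, 87250758 to 87263738, Cx3cr1 (ENSMUSG00000052336) on chromosome 9, 119901616 to 120069879, and Sall1 (ENSMUSG00000031665) on chromosome 8, 89027235 to 89044162, each on the minus strand. The span of Cx3cr1 overlaps several genes, among them Wdr48 on the opposite strand and Gorasp1 and Csrnp1 on the same strand, each with 0 shared exonic bases. It shares 78 exonic bases with the antisense gene Gm33858, which was at most 0.378 CPM. Siglech (ENSMUSG00000051504) is on the plus strand of chromosome 7, 55768178 to 55778925, and Tmem119 (ENSMUSG00000054675) on the minus strand of chromosome 5, 113793729 to 113800516. Gpr34 (ENSMUSG00000040229) lies on the plus strand of chromosome X, 13632089 to 13640858, inside Cask on the other strand, with 0 shared exonic bases. Csf1r (ENSMUSG00000024621, plus strand) shares 873 exonic bases with the antisense gene Hmgxb3, which was itself at 47.4 to 57.7 CPM, and whether counting used strand is not given in the sources used here. For the genotypes on the standard diet the log2 fold change was -0.19 ± 0.09 (SE) for Med12l, 0.034 ± 0.08 for Cask and 0.28 ± 0.29 for P2ry14, a neighbouring nucleotide receptor gene, with edgeR adjusted p-values of 0.324, 0.890 and 0.700.

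Promoters are shown for 4 of the 9 members, so that their sequence can be read beside these values. All 9 were high in KC872RL and KC873RR, so this did not single out the 4. Promoters of Cx3cr1 and Sall1 were also matched, held no copy of the letters described below, and are not shown. The stretches run from 250 bases before to 50 bases after the start of the gene, 5′ to 3′ along its strand, from RefSeq on GRCm38.p6, in which 6 of the 9 genes were matched. Capitals mark GAGGAA, or TTCCTC where it lies on the opposite strand, the core letters bound by the macrophage transcription factor PU.1. P2ry13 (chr3:59210833-59211132, minus strand) held it 48 bases before the start, Fcrls (chr3:87263475-87263774, minus strand) 144 bases before, and Siglech (chr7:55767934-55768233, plus strand) 4 bases before on the opposite strand. P2ry12 (chr3:59262936-59263235, minus strand) held no match to these exact letters.
P2ry12: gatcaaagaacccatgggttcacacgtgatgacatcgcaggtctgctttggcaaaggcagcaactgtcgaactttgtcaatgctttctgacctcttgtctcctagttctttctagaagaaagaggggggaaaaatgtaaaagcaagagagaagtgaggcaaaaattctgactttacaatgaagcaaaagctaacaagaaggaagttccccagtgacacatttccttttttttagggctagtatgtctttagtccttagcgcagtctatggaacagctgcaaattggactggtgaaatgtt
P2ry13: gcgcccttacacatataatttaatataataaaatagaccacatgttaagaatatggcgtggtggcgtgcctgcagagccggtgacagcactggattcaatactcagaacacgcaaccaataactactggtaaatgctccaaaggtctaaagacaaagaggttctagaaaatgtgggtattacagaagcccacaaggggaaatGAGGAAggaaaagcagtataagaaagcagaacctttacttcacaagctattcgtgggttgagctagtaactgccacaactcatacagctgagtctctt
Fcrls: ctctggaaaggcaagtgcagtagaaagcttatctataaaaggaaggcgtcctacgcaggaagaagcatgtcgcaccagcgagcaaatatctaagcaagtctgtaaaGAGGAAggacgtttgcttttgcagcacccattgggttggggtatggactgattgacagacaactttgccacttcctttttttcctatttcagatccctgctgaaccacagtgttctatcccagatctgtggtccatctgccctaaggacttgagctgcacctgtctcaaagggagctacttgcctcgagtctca
Siglech: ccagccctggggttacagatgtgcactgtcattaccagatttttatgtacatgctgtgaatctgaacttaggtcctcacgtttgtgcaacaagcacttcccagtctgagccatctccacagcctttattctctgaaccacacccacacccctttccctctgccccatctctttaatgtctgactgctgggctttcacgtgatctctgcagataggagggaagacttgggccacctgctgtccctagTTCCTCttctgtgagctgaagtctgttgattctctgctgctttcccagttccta
Searched on both strands, these 6 letters occurred in 3 of the 8 promoters of the 6 searched members, with no match in Sall1 or Cx3cr1. They occurred in 28.28% of the 32851 RefSeq promoters of the same length, from which no chromosome was left out. The letters are therefore common, and a match is a description of the sequence only.

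The genotypes were first compared on the standard diet, to ask whether the homeostatic set differed in the epileptic hippocampus. All 9 genes had a higher mean in the knockout, with log2 fold changes between 0.055 for Sall1 and 0.80 for Fcrls and a median of 0.50, where 51.1% of all tested genes were above 0, and 0 of 9 passed the threshold (edgeR quasi-likelihood test, adjusted p under 0.05 over all 17469 genes). The share of all tested genes that passed was 0.00572%, a single gene, Kcna1 itself. At an unadjusted p under 0.05, 6 of the 9 genes were higher, against 7.64% of all tested genes, and the median over all tested genes was 0.0044. DESeq2 and limma-voom also called 0 of 9, against 1.03% and 0.00572% of all genes with an adjusted p.

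The errors of the estimates were wide, in a knockout group that was split. Fcrls measured 13.7 ± 7.29 CPM in the knockout and 7.92 ± 0.82 CPM in the wild type (SD, n = 4 each), which differ by 0.80 ± 0.28 on the log2 scale (SE; edgeR adjusted p = 0.235). Siglech differed by 0.54 ± 0.19, Cx3cr1 by 0.52 ± 0.21 and Csf1r by 0.50 ± 0.19, with edgeR adjusted p-values of 0.232, 0.281 and 0.260. Gpr34 differed by 0.50 ± 0.23 and P2ry12 by 0.44 ± 0.18, with adjusted p-values of 0.341 and 0.289 (edgeR). P2ry13 and Tmem119 had smaller estimates, 0.30 ± 0.15 and 0.23 ± 0.13 (edgeR adjusted p = 0.389 and 0.442). With 1 library left out, P2ry13 ranged from 0.13 to 0.41 and Tmem119 from 0.072 to 0.35. Sall1 measured 23.6 ± 5.34 CPM in the knockout and 22.8 ± 2.08 CPM in the wild type, so its means differed by less than the spread of either group (edgeR adjusted p = 0.881). For 0 of 9 genes did the knockout and wild type libraries separate without overlap, as 2.97% of all tested genes did with the knockout above and 2.89% with it below. Leaving out KC872RL and KC873RR brought the median to -0.065 and turned 8 of 9 genes below 0, Siglech being the exception at 0.043. These libraries were picked as the highest of the group, so that choice itself moves each such estimate towards or below 0. With log2 CPM of Xist, which separates the libraries as Ddx3y does, as a covariate the median was 0.22 with 0 calls. Leaving out the library labelled knockout KC888LL instead gave 4 calls, Fcrls at 1.02, Siglech at 0.68, Csf1r at 0.65 and P2ry12 at 0.57, with edgeR adjusted p-values of 0.0116, 0.0341, 0.0387 and 0.0487. Calls rose over all genes in that fit too, with 2.88% of all tested genes called higher.

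**Figure D2:**
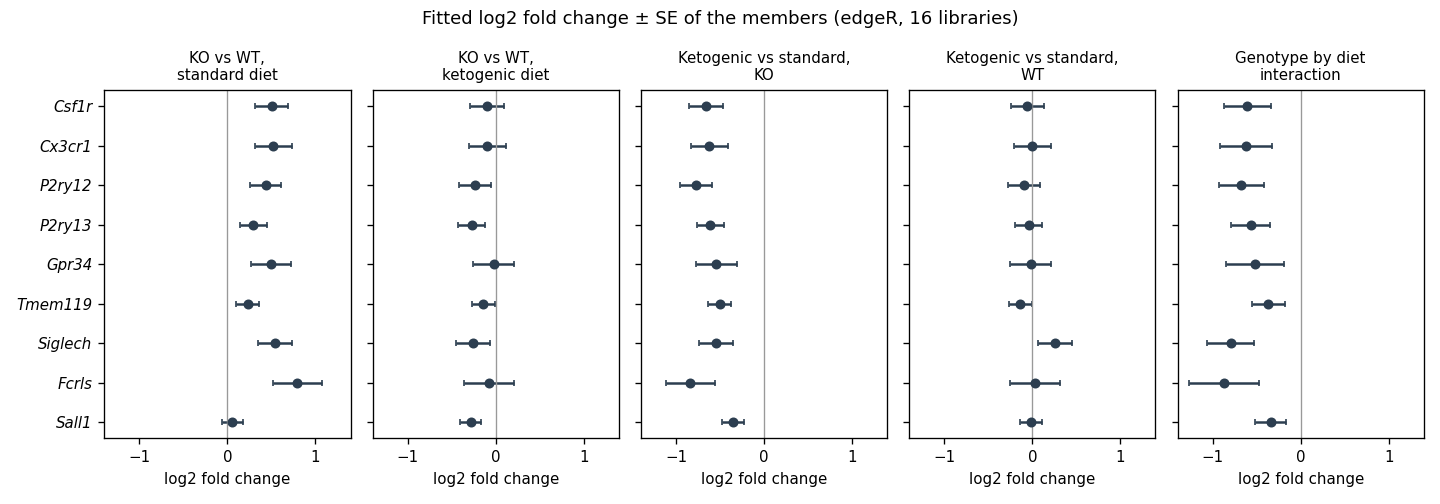
Fitted log2 fold change ± SE of the 9 genes in the 5 contrasts (edgeR, 16 libraries), the horizontal axis being the log2 fold change of the first-named group over the second, or the interaction. The estimates lie above 0 for the genotypes on the standard diet, below 0 for the diet in the knockout, and near 0 for the diet in the wild type.

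The libraries KC872RL and KC873RR also stood apart in other gene lists. The 15 genes of a pan-microglia and myeloid list, such as those of complement C1q, Tyrobp and Ctss, had a median of 2.63-fold in KC872RL and 2.71-fold in KC873RR over the wild type on the standard diet, against 0.916-fold in KC888LL and 1.09-fold in KC893RL. Between the genotypes on the standard diet 15 of 15 of these genes were higher in the knockout, with a median log2 fold change of 0.98, beside 0.50 for the homeostatic set, and 0 were called. Tyrobp, which encodes a signalling adaptor of myeloid receptors, was at 1.26 ± 0.35 (SE; edgeR adjusted p = 0.199), and Irf8, a transcription factor of the myeloid lineage, at 1.19 ± 0.32 (edgeR adjusted p = 0.194).

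Of 13 other homeostatic microglia genes, 9 were higher and 4 lower in the same comparison, with a median of 0.18 and 0 called. Sparc, a secreted matrix protein, was at 0.72 ± 0.15 (edgeR adjusted p = 0.192), with no overlap between genotypes. Kcnk13, a potassium channel gene, was the 1 of the 13 whose genotypes did not overlap with the knockout below, at -0.22 ± 0.14 (edgeR adjusted p = 0.483). Over all tested genes, 2.97% did not overlap with the knockout above and 2.89% with it below. Adgrg1, an adhesion receptor gene, had the lowest value, -0.41 ± 0.14 (edgeR adjusted p = 0.239), and was at 0.687-fold and 0.694-fold in KC872RL and KC873RR. Of the disease-associated microglia list, 8 of 12 genes passed the filter, 7 of them were higher and 0 were called. Gpnmb, a glycoprotein of phagocytic cells, was at 2.61 ± 0.55 (edgeR adjusted p = 0.192) and did not overlap between genotypes, as 2.97% of all tested genes did not in that direction. Spp1, which encodes osteopontin, was at 4.56 ± 1.10 (edgeR adjusted p = 0.192).

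Markers of border macrophages, monocytes and neutrophils were scarce. Of 8 border macrophage genes 4 passed the filter, their list summed to 2.50 to 7.52 CPM over all 16 libraries, and 4 of 4 were higher in the knockout on the standard diet with 0 called. Cd163, a scavenger receptor of border macrophages, was at 0.41 ± 0.34 and Lyve1, a hyaluronan receptor, at 0.63 ± 0.61 (edgeR adjusted p = 0.613 and 0.683). Of 8 monocyte and neutrophil genes only Ly6c2 passed the filter (0.39 ± 0.24, edgeR adjusted p = 0.483), and Ly6g and Cd177 were at 0 in 10 and 12 of 16 libraries. The reactive astrocyte list, of which 7 of 8 genes passed, had a median of 3.61-fold in KC872RL and 2.67-fold in KC873RR, and the proliferation list 2.95-fold in KC872RL but 1.13-fold in KC873RR. The astrocyte list had a median of 1.35-fold and 1.27-fold in these libraries, and its mean log2 CPM of 8.16 and 8.11 was the highest of the 16. The neuron list had a median of 0.885-fold and 0.845-fold, and its mean log2 CPM of 9.22 and 9.16 was the lowest of the 16, the others lying between 9.30 and 9.50. Choroid plexus genes summed to 361 and 191 CPM in KC872RL and KC873RR and to 553 CPM in KC893RL, within a range of 30.8 to 1064 CPM over all libraries. The part of these lists in the values of the homeostatic genes was not tested. High reactive astrocyte genes and high homeostatic microglia genes did not always occur together: KC913RR and KC934R, knockouts on the ketogenic diet, had a mean log2 CPM of 6.06 and 4.67 on the reactive astrocyte list, against 3.59 to 4.06 in the wild type. In KC913RR and KC934R the 9 microglia genes summed to 178 and 190 CPM. The wild type libraries that expressed Ddx3y, KC890RL and KC846L, had a mean log2 CPM of 4.21 and 4.22 over the 9 genes, against 4.97 and 4.89 in KC872RL and KC873RR. By this mean each was the highest of its group, KC890RL with KC900RLL next at 4.19 and KC846L with KC842L next at 4.16. By summed CPM KC846L was the highest of its group, at 221 CPM, and KC890RL was not, at 222 CPM against 225 CPM in KC900RLL.

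**Figure D3:**
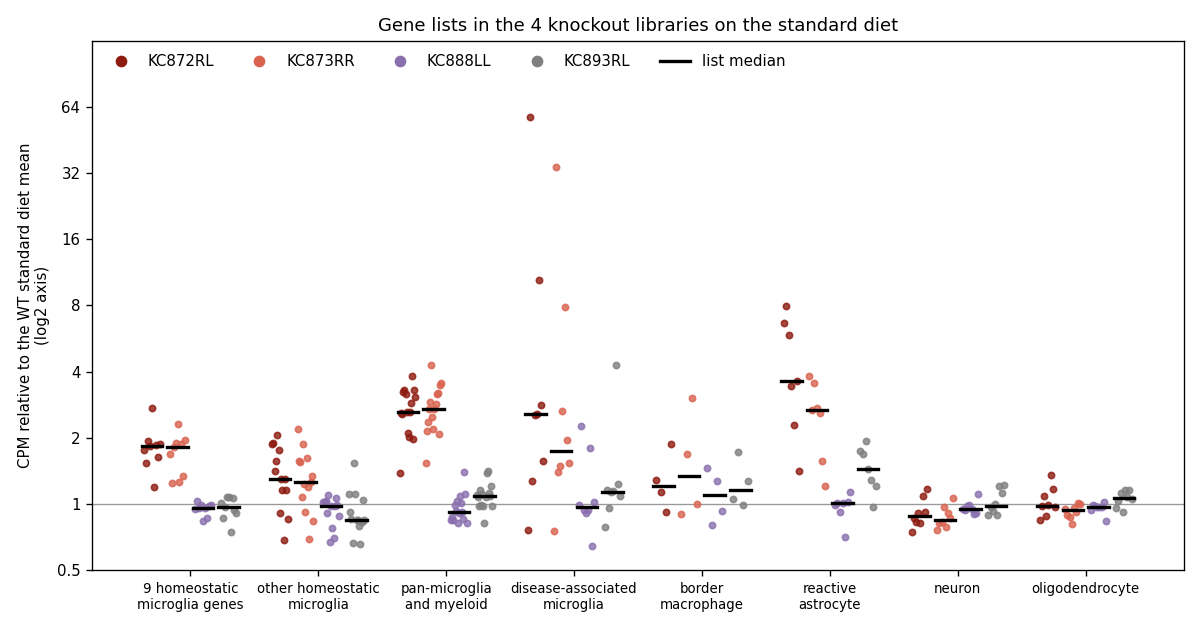
CPM of each gene in the 4 knockout libraries on the standard diet, divided by its mean in the wild type on that diet (log2 axis), for the 9 homeostatic microglia genes and other lists; points are genes and black bars are list medians. In KC872RL and KC873RR the medians of the microglial and reactive astrocyte lists are above 1, with a lower median for the 9 genes (1.84 and 1.82) than for the pan-microglia and myeloid list (2.63 and 2.71). Medians were 1.30 and 1.26 for the other homeostatic genes, some of which were below 1, and 2.55 and 1.75 for the disease-associated genes.

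The homeostatic genes were thus high in KC872RL and KC873RR but less so than the pan-myeloid genes. The mean log2 CPM of the 9 genes minus that of the 15 pan-microglia and myeloid genes was 0.96 in KC872RL and 0.84 in KC873RR. It lay between 1.15 and 1.67 in the other 14 libraries, so these libraries had the lowest differences of the study. Group means of this difference were 1.52 ± 0.05 in the wild type and 1.16 ± 0.31 in the knockout on the standard diet, and 1.57 ± 0.10 and 1.42 ± 0.21 on the ketogenic diet (SD, n = 4 each). Taken gene by gene, Sall1 was at 0.76 and 0.80 log2 units above the pan list in KC872RL and KC873RR, against 1.33 to 2.11 in the other 14 libraries. Tmem119 was at 0.85 and 0.52, against 1.15 to 1.73. Both libraries also lay below the other 14 for Csf1r, Cx3cr1, Gpr34, P2ry13 and Siglech, which makes 7 of 9 genes, and for P2ry12 only KC873RR did, at 1.80 against 1.83 to 2.57. Fcrls was at 0.43 and 0.15 against 0.18 to 0.62, so that in KC872RL its distance to the pan-myeloid genes was within the range of the other libraries. No test was made of these differences, since the libraries were singled out by their microglial values.

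**Figure D4:**
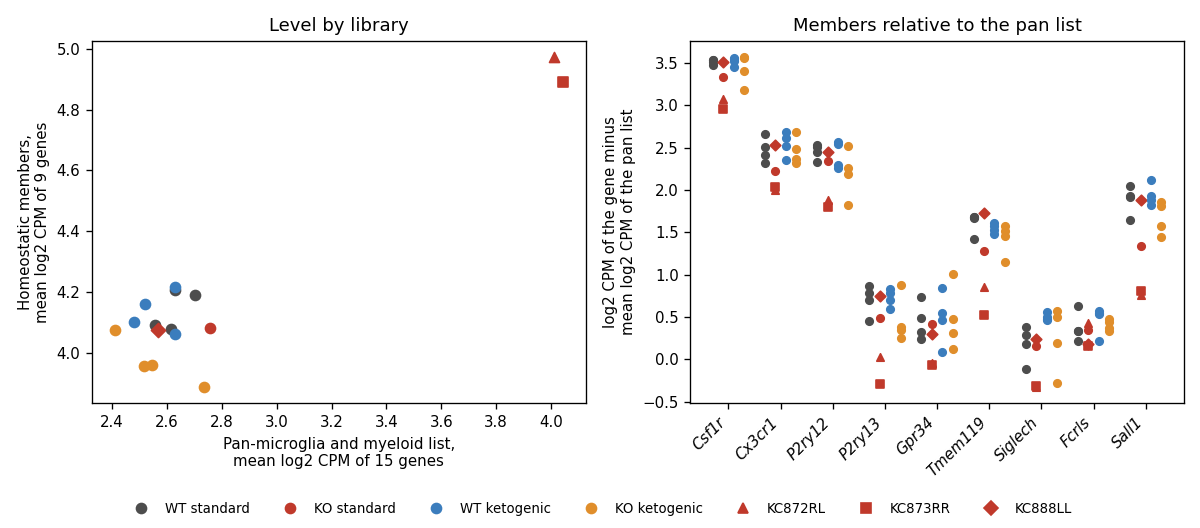
Left, mean log2 CPM of the 9 homeostatic genes against mean log2 CPM of the 15 pan-microglia and myeloid genes in each of the 16 libraries; right, log2 CPM of each homeostatic gene minus the pan list mean, by group. On the left KC872RL and KC873RR lie apart at the upper right, and on the right both lie below the other 14 libraries for 7 of 9 genes, all but P2ry12 and Fcrls.

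On the ketogenic diet the knockout and the wild type were close, with the knockout lower. Its mean was the lowest of the 4 groups for 9 of 9 genes, and the log2 fold changes between genotypes ran from -0.29 for Sall1 to -0.024 for Gpr34, with a median of -0.14, where 49% of all tested genes were below 0. Of the 9 genes 0 were called (edgeR, adjusted p under 0.05), against 0.0172% of all tested genes, and 1 was lower at an unadjusted p under 0.05, against 3.97% of all tested genes. DESeq2 and limma-voom called 0 as well, against 0.305% and 0.0114% of all genes. That gene was Sall1, at 18.5 ± 1.18 CPM in the knockout and 22.6 ± 1.08 CPM in the wild type (SD, n = 4 each; log2 fold change -0.29 ± 0.12, edgeR adjusted p = 0.494). Sall1 was also the only 1 of 9 genes whose genotypes did not overlap with the knockout below, which held for 1.98% of all tested genes. P2ry12 and P2ry13 differed by -0.24 ± 0.18 and -0.27 ± 0.16 (edgeR adjusted p = 0.712 and 0.601).

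The diet was compared within the knockout to ask whether it lowered these genes in the epileptic hippocampus. All 9 had a lower mean on the ketogenic diet, with log2 fold changes from -0.84 for Fcrls to -0.36 for Sall1 and a median of -0.61, while 48.5% of all tested genes were lower and their median was 0.0069. Of the 9 genes 0 passed the threshold (edgeR), while 1.16% of all tested genes did and 0.95% were called lower. At an unadjusted p under 0.05, 9 of 9 were lower, against 9.1% of all tested genes. P2ry12 came nearest to a call, at 26.9 ± 2.94 CPM on the ketogenic and 45.7 ± 14.6 CPM on the standard diet (SD, n = 4 each; log2 fold change -0.77 ± 0.18, edgeR adjusted p = 0.0535). It was the 1 gene of 9 without overlap between the diets, as were 3.72% of all tested genes in that direction. P2ry13 was at -0.61 ± 0.15 and Tmem119 at -0.50 ± 0.13, with edgeR adjusted p-values of 0.0617 and 0.0706. Csf1r was at -0.66 ± 0.19, Cx3cr1 at -0.62 ± 0.21, Siglech at -0.54 ± 0.19 and Gpr34 at -0.54 ± 0.23, with edgeR adjusted p-values between 0.108 and 0.247.

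This comparison shares the knockout libraries on the standard diet with the comparison of genotypes. Without KC872RL and KC873RR, a choice that again fixes the direction of the shift, its median was -0.071, with P2ry12 at -0.30, P2ry13 at -0.26 and Tmem119 at -0.20, and with log2 CPM of Xist as a covariate -0.30. With DESeq2 in place of edgeR, 6 of 9 genes were called, against 2.72% of all genes with an adjusted p called lower. By limma-voom 0 of 9 were called, against 0.721% of all genes called lower. Fits of only the groups compared and with Xist as a covariate also called 0, against 0.0535% and 0.0401% called lower. Without KC888LL 8 of 9 were called, all but Sall1, against 3.6% of all tested genes called lower in that fit. The 15 pan-microglia and myeloid genes were also all lower on the ketogenic diet in the knockout, with a median of -0.99. By edgeR 2 of the 15 were called lower, against 0.95% of all tested genes. Fcgr3, an immunoglobulin receptor, fell by 1.27 ± 0.29 and Itgam, an integrin of myeloid cells, by 1.14 ± 0.27 on the log2 scale (edgeR adjusted p = 0.0405 and 0.0483). Without KC872RL and KC873RR these values were -0.55 and -0.36, at edgeR adjusted p-values of 0.822 and 0.851. Fcgr3 was called in 8 and Itgam in 7 of 18 alternatives, with adjusted p-values from 0.00254 and 0.00278 upwards to those values. Leaving out 1 library kept either call in 2 of 8 fits, those without KC888LL and without KC893RL, and lost it without KC872RL, KC873RR, KC913RR, KC916RRL, KC934R or KC935LL. Oligodendrocyte markers differed with the diet in the knockout as well, 8 of 8 lower with 7 called and a median of -0.92. Of all tested genes 48.5% were lower and 0.95% were called lower. Whether these 7 calls held under the alternatives was not examined. Choroid plexus genes were lower in 5 of 6 with 0 called and a median of -2.71, and summed to 32.4 to 53.1 CPM in the knockout on the ketogenic diet and 47.4 to 553 CPM on the standard diet. With the diet in the wild type the oligodendrocyte markers were also 8 of 8 lower, with 0 called and a median of -0.49. Choroid plexus genes were lower in 5 of 6 there, with 0 called and a median of -0.43, and the 9 homeostatic genes had a median of -0.020. The part of either list in the microglial values was not tested.

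In the wild type the homeostatic genes had similar means on both diets. Their log2 fold changes lay between -0.13 for Tmem119 and 0.25 for Siglech, with a median of -0.020, 7 lower and 2 higher, where 50.1% of all tested genes were lower. By edgeR 0 of 9 were called, against 0.0114% of all tested genes, and 0 of 9 reached an unadjusted p under 0.05, against 5.46% of all tested genes. DESeq2 and limma-voom called 0, against 0.0687% and 0.0114% of all genes. Cx3cr1 measured 34.4 ± 4.87 CPM on the standard and 34.4 ± 1.90 CPM on the ketogenic diet (SD, n = 4 each), and the sign of its difference turned under several alternatives.

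The interaction of genotype and diet tests whether the diet acted differently in the knockout. Its estimates were below 0 for 9 of 9 genes, from -0.87 ± 0.40 for Fcrls to -0.34 ± 0.17 for Sall1, with a median of -0.61, where 49% of all tested genes were below 0. By edgeR 0 were called, as were 0% of all tested genes, with adjusted p-values from 0.654 to 0.751. At an unadjusted p under 0.05, 5 of 9 were lower, against 4.09% of all tested genes. DESeq2 and limma-voom called 0, against 0.0401% and 0% of all genes. The median was -0.056 without KC872RL and KC873RR and -0.22 with Xist as a covariate. The diet in the knockout and the diet in the wild type were thus not shown to differ for any of the 9 genes.

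Genes for ligands of these receptors were read beside them. Il34, which encodes the main neuronal ligand of Csf1r, measured 39.6 ± 3.80 CPM in the wild type and 33.3 ± 1.65 CPM in the knockout on the standard diet (SD, n = 4 each), with the knockout below the wild type without overlap, as 2.89% of all tested genes were (log2 fold change -0.25 ± 0.15, edgeR adjusted p = 0.472). Cx3cl1, the fractalkine that Cx3cr1 binds, measured 440.4 ± 34.9 and 382 ± 42.3 CPM in these groups (log2 fold change -0.20 ± 0.08, edgeR adjusted p = 0.281). Il34 and Cx3cl1 thus had lower means in the knockout, where Csf1r and Cx3cr1 had higher means, and neither difference passed the threshold. Of the 11 tested ligands and signalling partners, 8 were higher and 3 lower in this comparison, where 51.1% of all tested genes were higher. Their median log2 fold change was 0.15, with 0 called. Csf1, the other ligand of Csf1r, measured 25.8 ± 2.66 CPM in the knockout and 24.3 ± 2.23 CPM in the wild type on the standard diet (log2 fold change 0.086 ± 0.08, edgeR adjusted p = 0.692). Csf1 fell by 0.35 ± 0.09 on the log2 scale with the diet in the knockout (edgeR adjusted p = 0.0495), from 25.8 ± 2.66 to 20.2 ± 0.82 CPM without overlap. Of the 11 tested ligands and signalling partners, Csf1 was the only 1 called in that comparison, where 0.95% of all tested genes were called lower. It was 1 of 2 among the 11 without overlap and with the ketogenic diet below, against 3.72% of all tested genes. Csf1 was called in 5 of 18 alternatives (adjusted p from 0.0119 to 0.808, the highest without KC872RL and KC873RR, where the log2 fold change was -0.24). With 1 library left out the Csf1 call held in 2 of 8 fits, those without KC888LL and without KC893RL, and was lost without KC872RL, KC873RR, KC913RR, KC916RRL, KC934R or KC935LL. Tgfb1, which encodes transforming growth factor beta, differed by 0.32 ± 0.24 between genotypes on the standard diet (edgeR adjusted p = 0.572).

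The genes whose levels ranked most like the mean of the 9 were sought among 15412 others with a mean of at least 1 CPM, by Spearman correlation of log2 CPM over the 16 libraries. Bfsp2 was first at 0.88, followed by Mpeg1 and Igsf11 at 0.85 and 0.84. Mpeg1, a pore-forming protein of macrophages, was 6.93-fold and 11.2-fold above the wild type mean in KC872RL and KC873RR. Kdm5d, a Y-linked gene, and Atl3 both stood at 0.84, Cd180, a receptor of myeloid cells, at 0.82, Pcf11 at 0.81 and Slc35d1 at 0.80. Over the 14 libraries without KC872RL and KC873RR these correlations were 0.83 for Bfsp2, 0.78 for Mpeg1 and 0.74 to 0.79 for the others. Ranked over these 14 libraries instead, the first 8 genes shared only Bfsp2 with this list. They began with Eid1 at 0.88 and Zbtb11 at 0.84, which stood at 0.30 and 0.39 over the 16 libraries. The 8 genes thus included macrophage genes, a Y-linked gene and genes with ratios near 1 in the high libraries, such as Pcf11. Among the 9 markers themselves, the 36 pairs had Spearman correlations from -0.29 to 0.83 over these 14 libraries, with a median of 0.27, and 25 were above 0. These values are descriptions over libraries that share groups and depth.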

How the data were processed

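RNA was sequenced from 16 hippocampal libraries, 4 in each group given by the labels. The authors deposited raw counts per gene, with no normalization, in a single table of 49315 Ensembl genes. The submitters' processing notes name mm10 and DESeq2, and the aligner, the counting program and the use of strand are not given in the sources used here. Columns gave an animal tag, genotype and diet but no replicate number, so each was assigned to its group only.

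Genes were filtered with filterByExpr and fitted with edgeR 4.0.16 (R 4.3.3): TMM factors, robust quasi-likelihood, 1 coefficient per group, all 16 libraries and 12 residual degrees of freedom. P-values were two-sided and adjusted over all 17469 tested genes (Benjamini-Hochberg), with calls at an adjusted p under 0.05. Standard errors were derived from the F statistic. CPM used effective library sizes, and log2 CPM a prior count of 2. Exonic lengths and positions came from GENCODE M21. Library totals of 13440230 to 22309504 counts set the precision, and 80 counts was the smallest value of any of the 9 genes.

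Tested on simulated data (17296 genes) for the genotypes on the standard diet, the fit recovered 23 of 67 genes changed by 0.5, 44 of 67 by 1 and 58 of 66 by 2 on the log2 scale, with 6 other calls.

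Alternatives were DESeq2 size factors, upper-quartile factors, no filter, a minimum of 10 counts in each library, limma-voom (limma 3.58.1), DESeq2 1.42.0, no robust estimation, only the groups compared, log2 CPM of Xist as a covariate, each library left out, KC872RL and KC873RR left out together, and a prior count of 0.5. The same alternatives for Csf1, Fcgr3 and Itgam were added after seeing the data.

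Genes were named by a rule: the 9 markers, Kcna1, the ligands Il34, Csf1, Cx3cl1 and Tgfb1, the host genes, the 2 genes of smallest p on the standard diet from each microglia, macrophage or monocyte list, and the 8 most alike genes. Some genes that the rule names are not reported here. Fcgr3, Itgam, Ddx3y, Xist, Ly6g, Cd177, Hmgxb3, Kcnk13, Adgrg1, Eid1 and Zbtb11 were named after their values were seen. The markers and lists were chosen with earlier results of these data known.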

Additional observations from a re-analysis of the deposited data

Results flagged for a closer look

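In the wild type on the standard diet, P2ry13 measured 8.28 CPM in KC897RR, against 10.5 to 10.6 CPM in the other 3 libraries of the group. The gap to the nearest library was 0.950 of the group's range, above Dixon's critical value for 4 samples. This was 1 of 44 groups examined, and chance is expected to give about 1 in 20.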

How the results depend on the processing

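No paired analysis was possible because the columns carry no replicate number. For the genotypes on the standard diet, 0 of the 9 genes were called under each of the 10 alternatives other than leaving out 1 library, where 0% (only the groups compared) to 1.03% (DESeq2) of all genes were called, and 0 to 4 when 1 library was left out (4 without KC888LL, where 2.88% of all tested genes were called higher). For the diet in the knockout, 2 genes (P2ry13 and Tmem119) were called with no filter, 1 (P2ry12) with at least 10 counts in every library, 6 with DESeq2 and 1 (P2ry12) without robust estimation, and 0 to 8 when 1 library was left out (8 without KC888LL, 6 without KC893RL, 0 without KC872RL). The shares of all tested genes called lower in these fits were 0.534% with no filter, 1.11% with at least 10 counts, 2.72% with DESeq2, 1.02% without robust estimation, 3.6% without KC888LL, 1.1% without KC893RL and 0.158% without KC872RL. The other contrasts gave 0 calls throughout.

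With log2 CPM of Xist as a covariate the medians for the genotypes on the standard diet, the diet in the knockout and the interaction were 0.22, -0.30 and -0.22, and without KC872RL and KC873RR they were -0.065, -0.071 and -0.056. With 1 library left out they lay between 0.32 and 0.65, between -0.72 and -0.44 and between -0.75 and -0.42. For the genotypes on the ketogenic diet the range was -0.18 to -0.11, and for the diet in the wild type -0.057 to 0.0022. Under the alternatives other than leaving out 1 library, these 2 medians ran from -0.15 to -0.052 and from -0.053 to -0.012. The cause of these shifts was not tested.

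Signs turned for single genes as follows, with the cause not tested. Without KC872RL and KC873RR, the genotype difference on the standard diet became -0.032 for P2ry12, -0.072 for Tmem119, -0.057 for Csf1r, -0.073 for Fcrls, -0.23 for Sall1, -0.065 for Gpr34, -0.059 for P2ry13 and -0.070 for Cx3cr1. The diet in the knockout then gave 0.026 for Fcrls and 0.018 for Gpr34, and the interaction 0.040 for Gpr34. With Xist as a covariate Sall1 was at -0.080 between genotypes on the standard diet. Under the ketogenic diet Csf1r was then at 0.031, Fcrls at 0.11, Gpr34 at 0.11 and Cx3cr1 at 0.029, and the diet in the wild type gave -0.049 for Fcrls. The diet in the wild type gave Cx3cr1 at 0.0054 with upper-quartile factors, 0.0064 with no filter and 0.0058 with limma-voom. With 1 library left out, Sall1 ranged from -0.046 to 0.19 between genotypes on the standard diet and Gpr34 from -0.17 to 0.088 on the ketogenic diet. For the diet in the wild type the ranges were -0.065 to 0.043 for Sall1, -0.13 to 0.088 for Gpr34, -0.057 to 0.093 for Cx3cr1 and -0.023 to 0.094 for Fcrls.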
